A study of Mus musculus with 6 samples.

Results

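Retinoic acid (RA), a signal linked to the entry of fetal germ cells into meiosis, depends on a small set of enzymes and binding proteins. Their genes were followed, 9 in all, through the cell types of the E15.5 mouse gonad: *Aldh1a1*, *Aldh1a2*, *Aldh1a3*, *Cyp26b1*, *Cyp26a1*, *Rbp4*, *Stra6*, *Crabp1* and *Crabp2*. The 9 genes were taken by symbol from the 26251 genes listed in any of the 6 libraries. All 9 are listed in every library. Single-cell RNA-seq had been made from whole fetal gonads of wild-type XY mice (control XY; Amh+/+; Inhbb+/+), XY mice without anti-Müllerian hormone and the inhibin/activin βB subunit (dKO XY; Amh -/-; Inhbb -/-), and wild-type XX mice (control XX), with 2 libraries in each group. All embryos were taken at E15.5, the day of gestation given in the labels, from the same pair of mutant lines on a C57BL/6 background. The gonads of an embryo were pooled, and every cell suspension was frozen before capture while the embryo was genotyped. Both alleles are missing in the whole animal, so no change below can be assigned to loss of the genes in a particular cell type.

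Retinol travels in blood on RBP4, enters some cells through the receptor STRA6, and is oxidised first to retinaldehyde by dehydrogenases such as RDH10 and then irreversibly to RA by the ALDH1A enzymes. In the cytoplasm RA is held by CRABP1 and CRABP2, and the CYP26 enzymes oxidise it for removal. In the fetal gonad RA is best known for inducing *Stra8* in ovarian germ cells before meiosis, and CYP26B1 for keeping RA away from germ cells of the fetal testis.

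After filtering, 39350 of 68064 barcodes were kept, with a median of 18415 to 27124 unique molecular identifiers (UMIs) per cell in the 6 libraries. For each library the UMIs of a cell type were added up, and levels are given as CPM, that sum scaled to a common library total. Cell types were named from marker genes, and none of the 9 genes was used for clustering. In control XY supporting cells *Amh* stood at 2038 and 1885 CPM, against 17.6 and 15.4 CPM in dKO XY. *Inhbb* stood at 161 and 183 CPM, against 40.6 and 49.4 CPM, in the direction of the genotype labels. Within the supporting cells, a Sertoli-like population held 188 and 406 cells in control XY and 654 and 390 in dKO XY. A granulosa-like population held 2720 and 904 cells in control XX and 71 and 26 in dKO XY. It joins a pair of subclusters: 1674 and 548 of the XX cells lay in the one led by *Cela1* and *Irx3*, while 60 and 18 of the dKO XY cells lay in the other, led by *Lmcd1* and *Tgfb2*, in which 3 granulosa markers passed and the interstitial markers scored highest over all the marker lists. A further supporting subcluster led by *Tnnt2*, *Smoc2* and *Spon1*, in which the Leydig markers scored highest over all the marker lists, was left unnamed. It held 453 and 486 cells in dKO XY and 11 to 29 in the other libraries. Leydig cells were found in XY libraries only, with 847 to 1191 cells each. XX interstitial cells were almost all in a single stromal cluster led by *Il33*, *Gdf10* and *Lum* (1529 of 1534 and 2937 of 2940 cells). This cluster held 268 of 5221 and 233 of 6239 interstitial cells in control XY and 648 of 4583 and 312 of 2723 in dKO XY. Germ cells numbered 257 and 227 in control XX and 414 and 277 in dKO XY, but 15 and 7 in control XY, too few for a test. In GENCODE M21 on GRCm38 the genes lie at chr19:20492715-20643465 (*Aldh1a1*), chr9:71215789-71296243 (*Aldh1a2*), chr7:66390890-66427517 (*Aldh1a3*), chr6:84571414-84593908 (*Cyp26b1*), chr19:37697798-37701536 (*Cyp26a1*), chr19:38116629-38125281 (*Rbp4*), chr9:58063788-58153996 (*Stra6*), chr9:54764748-54773110 (*Crabp1*) and chr3:87948666-87953376 (*Crabp2*).

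**Figure D1:**
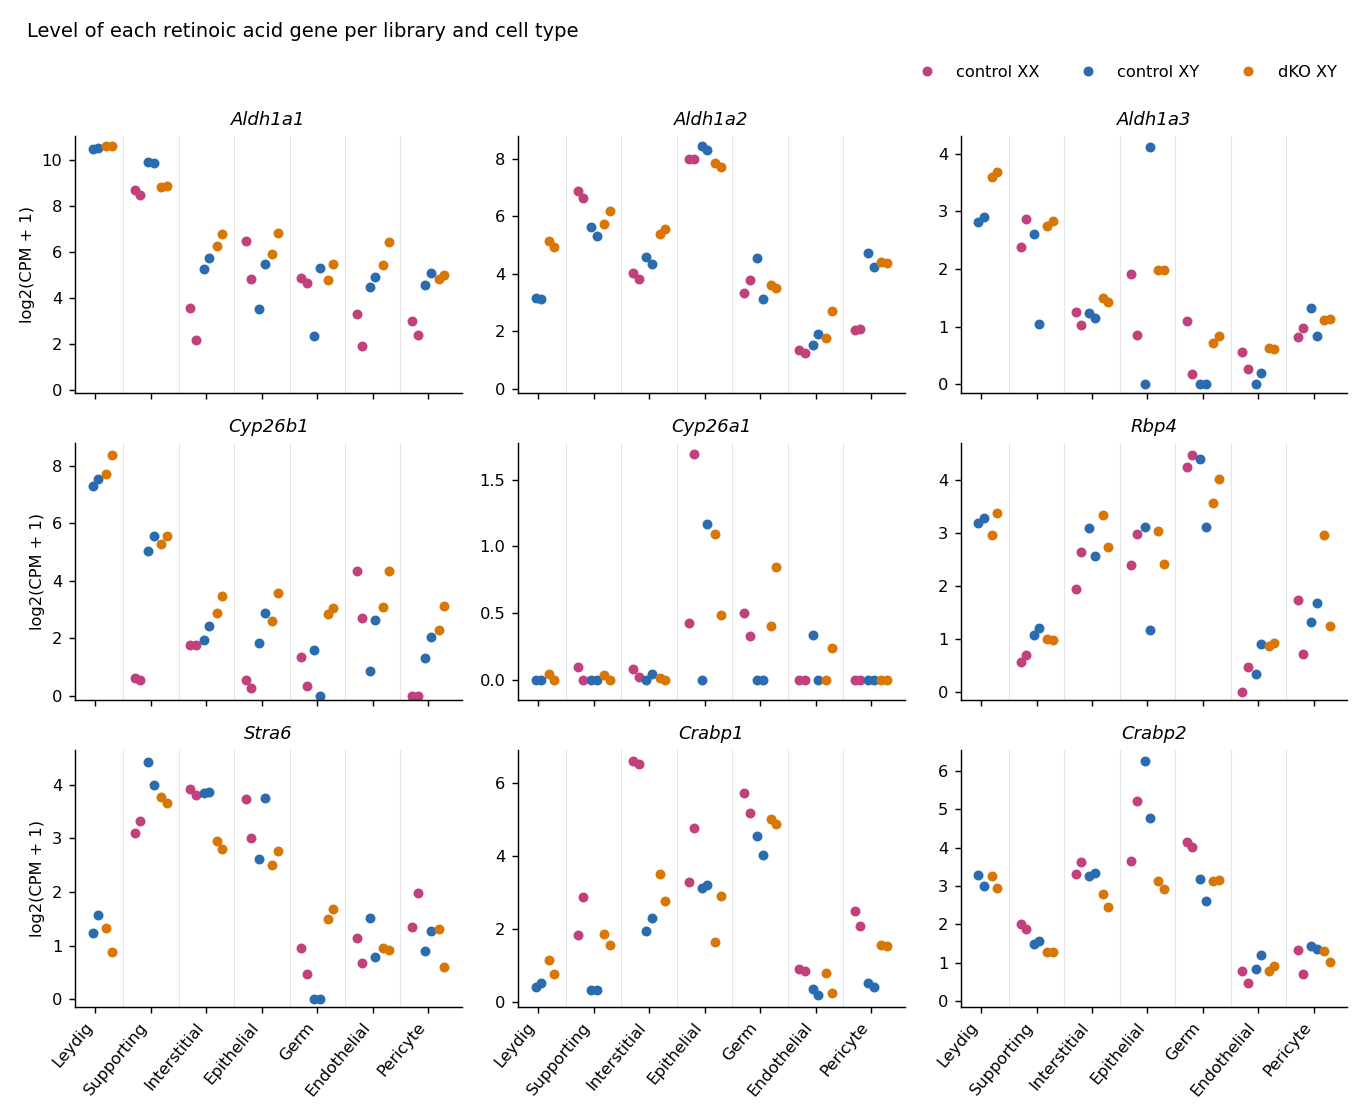
Level of each of the 9 genes as log2(CPM + 1), 1 dot per library and cell type, coloured by group. *Cyp26b1* and *Aldh1a1* stand highest in Leydig cells, *Aldh1a2* in epithelial cells and *Crabp1* in XX interstitial and germ cells.

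The cells that held the transcripts differed between testis and ovary. In control XY libraries Leydig cells carried 90.0% and 85.8% of all *Cyp26b1* UMIs and 80.5% and 75.1% of all *Aldh1a1* UMIs. In control XX libraries supporting cells carried 95.8% and 94.9% of the *Aldh1a1* UMIs and 77.8% and 57.2% of the *Aldh1a2* UMIs, while *Cyp26b1* gave only 310 and 204 UMIs in all cells together. The dKO XY libraries kept Leydig cells as the main holder of *Cyp26b1* (74.0% and 82.6%) and *Aldh1a1* (65.6% and 69.6%). For *Crabp1* the interstitial cells held 80.7% to 91.2% of UMIs in the 4 control libraries but 61.1% and 50.5% in dKO XY, where germ cells held a further 27.6% and 31.1%. These shares move with the number of cells captured of each type as well as with the level per cell.

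**Figure D2:**
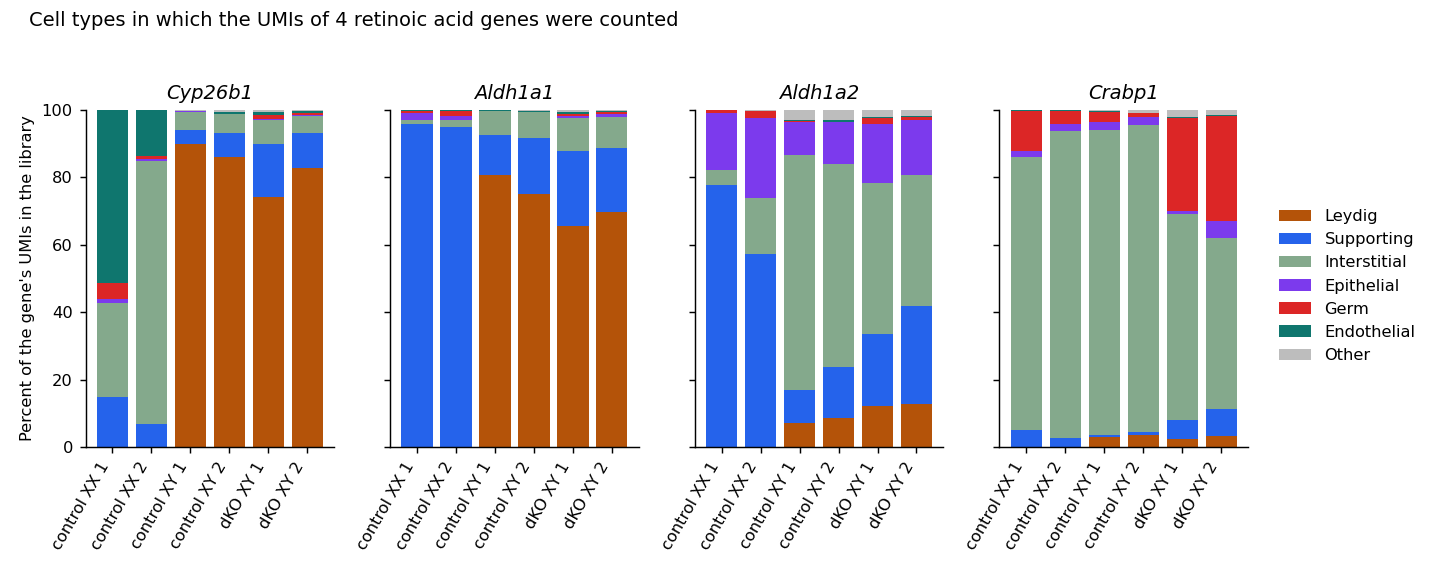
Percent of the UMIs of *Cyp26b1*, *Aldh1a1*, *Aldh1a2* and *Crabp1* that came from each cell type, 1 stacked bar per library. The Leydig part is the largest of the *Cyp26b1* and *Aldh1a1* bars in all 4 XY libraries and is missing from both XX bars.

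*Aldh1a1*, a retinaldehyde dehydrogenase that makes RA, was lower in the Sertoli-like and supporting cells of dKO XY testes and was not lower in their Leydig cells. In Sertoli-like cells the control XY libraries held 1134 and 1113 CPM and the dKO XY libraries 540 and 556 CPM. Across all supporting cells it stood at 943 and 932 CPM in control XY, 447 and 461 CPM in dKO XY and 404 and 354 CPM in control XX. Both dKO XY libraries were below both control XY libraries and just above both XX libraries. The log2 fold change of dKO XY against control XY was -1.08 ± 0.14 (SE) in Sertoli-like cells (edgeR quasi-likelihood test with Benjamini-Hochberg adjustment over all genes tested, adjusted p = 0.000238). It was -1.04 ± 0.13 in supporting cells (edgeR adjusted p = 0.000533). In Sertoli-like cells the summed Sertoli markers overlapped, at 10420 to 12530 CPM in dKO XY and 10757 to 12081 CPM in control XY, with 5 of 11 markers higher and 3 lower in both dKO XY libraries. Across all supporting cells 8 of 11 Sertoli markers (a summed 5194 to 7433 CPM in dKO XY, 8802 to 9715 CPM in control XY) and 8 of 8 interstitial markers (326 to 359 CPM, 776.7 to 872 CPM) were lower in dKO XY. The 8 granulosa markers moved with the fall, at a summed 199.6 to 259 CPM in dKO XY Sertoli-like cells and 33.7 to 39.4 CPM in control XY with 8 of 8 higher, and the 6 germ markers at 174 to 249 CPM and 37.4 to 53.4 CPM with 6 of 6 higher. The part of these markers in the results was not tested. Control XX supporting cells were lower than control XY by -1.36 ± 0.13 (edgeR adjusted p = 1.68e-05), and dKO XY supporting cells differed from XX by 0.32, which did not pass the test (edgeR adjusted p = 0.0738).

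In Leydig cells *Aldh1a1* stood at 1393 and 1449 CPM in control XY, with 1550 and 1563 CPM in dKO XY, a log2 difference of 0.10 with a 95% interval of -0.06 to 0.26 (edgeR adjusted p = 0.511). In interstitial cells it stood at 37.3 and 52.3 CPM in control XY, 75.9 and 108 CPM in dKO XY and 10.8 and 3.39 CPM in control XX. The dKO XY values lay above the controls without passing the test (log2 1.03 ± 0.39, edgeR adjusted p = 0.188). Both XY groups were above XX, by 2.67 (control XY, edgeR adjusted p = 0.00272) and 3.71 on the log2 scale (dKO XY, edgeR adjusted p = 0.000653). The XX difference from control XY was -3.60 without control XX replicate 1 and -2.04 without control XX replicate 2. The dKO XY difference was 4.63 without control XX replicate 1, 3.07 without control XX replicate 2, 4.94 with all variable genes and 4.63 with more than 1500 genes per cell, and the mean dKO XY level in the last 2 settings was 220.6 and 189 CPM. Leydig markers in these interstitial sums were at 187 to 193 CPM in dKO XY, 219 to 226 CPM in control XY and 60.9 to 70.2 CPM in XX. They were thus lowest in XX, as *Aldh1a1* was, but between the XY groups they did not follow it, with 4 of 6 lower and 2 higher in dKO XY. *Cyp11a1* alone stood at 26.8 to 27.6, 34.8 to 39.4 and 0.0283 to 0.0757 CPM. Immune cells held 84.3 and 37.8 CPM of *Aldh1a1* in dKO XY, 16.6 and 91.2 CPM in control XY and 7.23 and 4.39 CPM in XX. The part of these in the XX difference was not tested. Within the stromal cluster alone, which holds nearly all XX interstitial cells, *Aldh1a1* stood at 10.8 and 3.40 CPM in control XX, 14.9 and 20.2 CPM in control XY and 16.6 and 20.2 CPM in dKO XY. The XX difference from control XY was then -1.31 (edgeR adjusted p = 0.0703) and the dKO XY difference from XX 1.35 (edgeR adjusted p = 0.0486).

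*Aldh1a2*, the enzyme that makes most RA in the early embryo, had its highest level in epithelial cells and rose in dKO XY Leydig and interstitial cells. Epithelial cells held 254 and 252 CPM in control XX, 347 and 319 CPM in control XY and 233 and 207 CPM in dKO XY. In Leydig cells it went from 7.93 and 7.72 CPM in control XY to 33.9 and 29.5 CPM in dKO XY. Neither group overlapped the other, and the log2 fold change was 1.99 ± 0.12 (edgeR adjusted p = 0.000859), past the threshold in 12 of 12 alternative settings with values of 1.74 to 2.10. The summed level of the 6 Leydig markers was lower in dKO XY Leydig cells (23821 to 24416 CPM against 34043 to 35087 CPM, with 5 of 6 below both control XY libraries), and the germ markers (38.9 to 50.7 CPM against 17.4 to 18.3 CPM, 6 of 6) and epithelial markers (16.7 to 19.8 CPM against 7.21 to 11.2 CPM, 5 of 8) were higher. The summed granulosa markers overlapped (132 to 159 CPM against 141 to 144 CPM) with 6 of 8 higher. Erythroid markers were higher too (116 to 194 CPM against 14.1 to 25.4 CPM, 5 of 7 higher and 0 lower). So were mesonephric tubule markers (3.68 to 5.11 CPM against 0.670 to 1.16 CPM, 5 of 6 higher and 0 lower). Immune cells, a background here, held 3.37 and 4.395 CPM of *Aldh1a2* in control XY and 10.1 and 17.0 CPM in dKO XY. That difference, and whether immune cells express the gene themselves, were not tested. The part of these differences in the *Aldh1a2* result was not tested.

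In interstitial cells *Aldh1a2* stood at 22.9 and 19.1 CPM in control XY, 40.3 and 46.5 CPM in dKO XY and 15.1 and 13.1 CPM in control XX. The rise in dKO XY was 1.04 ± 0.12 on the log2 scale (edgeR adjusted p = 0.00478). In the same sums all 8 interstitial markers were lower in dKO XY (a summed 3495 to 3550 CPM against 5101 to 5373 CPM in control XY) and all 8 epithelial markers higher (13.1 to 13.6 CPM against 4.68 to 7.96 CPM). Germ markers (35.2 to 44.2 CPM against 6.60 to 7.17 CPM, 6 of 6) and erythroid markers (219 to 226 CPM against 18.0 to 35.1 CPM, 4 of 7, 0 lower) were higher too. The part of these in the result was not tested. The *Aldh1a2* rise was seen in the *Sostdc1* and *Inhba* cluster (24.9 and 20.04 CPM against 46.8 and 53.5 CPM) and in the cycling *Mki67* cluster (22.5 and 18.6 CPM against 44.6 and 50.1 CPM), but not in the stromal cluster, where control XY had 7.80 and 13.2 CPM and dKO XY 8.07 and 7.79 CPM. Against XX the order of the groups depended on the cluster. Over all interstitial cells XX was lower than control XY by -0.51 (edgeR adjusted p = 0.0176), and dKO XY was higher than XX by 1.55 (edgeR adjusted p = 8.36e-05). In the stromal cluster alone dKO XY was lower than XX by -0.90 (edgeR adjusted p = 0.0233). The difference of XX from control XY did not pass without control XY replicate 1 (-0.37, edgeR adjusted p = 0.168) or control XX replicate 2 (-0.46, edgeR adjusted p = 0.095).

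Supporting cells showed the reverse order of *Aldh1a1*. *Aldh1a2* stood at 117 and 98.9 CPM in control XX, 48.7 and 38.5 CPM in control XY and 51.6 and 72.2 CPM in dKO XY. XX cells were higher than control XY by 1.26 ± 0.19 (edgeR adjusted p = 0.00038) and higher than dKO XY, which was at -0.74 ± 0.19 relative to XX (edgeR adjusted p = 0.00957). The 8 epithelial markers moved with this order, at a summed 375 to 420 CPM in XX, 118 to 130.3 CPM in control XY and 119.6 to 193 CPM in dKO XY supporting cells, with 6 of 8 lower in dKO XY than in XX. Their part in it was not tested. The dKO XY difference from control XY, 0.53 ± 0.19, did not pass (edgeR adjusted p = 0.0946). Without dKO XY replicate 1, which leaves a single dKO XY library, that difference was 0.76 and the one from XX was -0.51. Within dKO XY, Sertoli-like cells held 32.5 and 40.5 CPM, the unnamed subcluster 81.9 and 105 CPM, and the few granulosa-like cells, mostly of the *Lmcd1* subcluster, 86.8 and 125 CPM, beside 119 and 103 CPM in XX granulosa-like cells, mostly of the *Cela1* subcluster.

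*Aldh1a3*, the remaining RA-synthesizing dehydrogenase, was detected at low levels. In Leydig cells it rose from 6.06 and 6.48 CPM in control XY to 11.1 and 11.9 CPM in dKO XY (log2 0.84 ± 0.12, edgeR adjusted p = 0.00702). The Leydig markers were lower (5 of 6) and the germ markers higher (6 of 6) in these same dKO XY sums, and their part was not tested. In Sertoli-like cells it rose from 1.02 and 0.494 CPM to 3.88 and 3.74 CPM (log2 2.43 ± 0.43, edgeR adjusted p = 0.00222). Without control XY replicate 2 this difference was 1.84 and did not pass (edgeR adjusted p = 0.0649). In all supporting cells the groups overlapped, with 5.12 and 1.07 CPM in control XY, 5.70 and 6.11 CPM in dKO XY and 4.24 and 6.30 CPM in control XX.

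**Figure D3:**
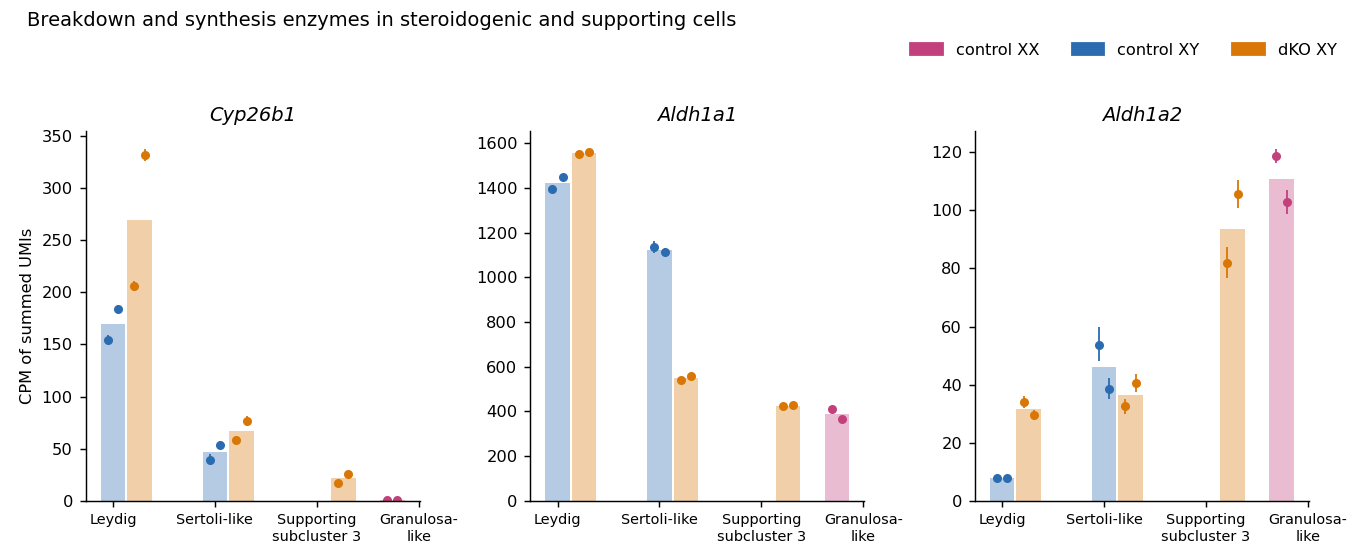
CPM of *Cyp26b1*, *Aldh1a1* and *Aldh1a2* in Leydig cells, Sertoli-like cells, the unnamed supporting subcluster and granulosa-like cells. Bars are means of the libraries of a group, points are libraries, and vertical lines are 95% exact Poisson intervals of each library. *Aldh1a1* is lower in dKO XY Sertoli-like cells and *Aldh1a2* higher in dKO XY Leydig cells, with no overlap of points.

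*Cyp26b1*, which clears RA from the fetal testis, was not lost from dKO XY gonads. In Leydig cells it stood at 155 and 184 CPM in control XY (169 ± 20.5, SD, n = 2) and at 206 and 332 CPM in dKO XY (269 ± 88.9, SD, n = 2). Both dKO XY values were above both control XY values, but they were far apart from each other, and the log2 difference of 0.63 ± 0.19 (95% interval 0.26 to 1.01) did not pass over all genes (edgeR adjusted p = 0.0775). The difference passed when genes with low counts were kept (edgeR adjusted p = 7.75e-09). It was 0.91 without dKO XY replicate 1 and 0.27 without dKO XY replicate 2. Without control XY replicate 1 it was 0.51, and without control XY replicate 2 it was 0.75. Each of these fits leaves a single library in a group. The share of Leydig cells with a *Cyp26b1* UMI was 83.1% and 86.0% in control XY and 86.8% and 92.3% in dKO XY, and 46.5% and 51.0% against 53.7% and 66.6% after every cell was thinned to 5000 UMIs.

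The supporting cells separated testis from ovary by *Cyp26b1* in both XY genotypes. The levels were 31.6 and 45.6 CPM in control XY, 37.9 and 45.9 CPM in dKO XY, and 0.536 and 0.464 CPM in control XX. The XY groups overlapped, with a log2 difference of 0.12 ± 0.18 and a 95% interval of -0.23 to 0.47 (edgeR adjusted p = 0.719). Against XX, control XY and dKO XY supporting cells were higher by 6.28 and 6.40 on the log2 scale (edgeR adjusted p = 5.41e-08 and 1.12e-07). The Leydig gene *Cyp11a1* moved the same way in these sums, at 43.9 to 83.2 CPM in control XY, 63.0 to 95.2 CPM in dKO XY and 0.829 to 1.28 CPM in XX, while the 6 Leydig markers summed to 199 to 309, 315 to 367 and 226 to 245 CPM. Immune cells held 6.46 and 22.3 CPM of *Cyp26b1* in control XY, 8.22 and 5.90 CPM in dKO XY and 0 in XX. The part of either in the difference from XX was not tested. In Sertoli-like cells alone the values were 39.3 and 53.4 CPM in control XY and 58.2 and 76.4 CPM in dKO XY, which do not overlap but did not pass the test (log2 0.48, 95% interval 0.14 to 0.83, edgeR adjusted p = 0.0954). They passed when genes with low counts were kept (0.50, edgeR adjusted p = 0.011). The difference was 0.69 without dKO XY replicate 1, a fit that leaves a single dKO XY library. The unnamed dKO XY subcluster, in which the Leydig markers scored highest over all the marker lists, held 17.1 and 26.1 CPM. The 71 and 26 granulosa-like dKO XY cells, mostly of the *Lmcd1* subcluster, held 2.76 and 5.33 CPM, from 5 UMIs in each library, beside 0.544 and 0.461 CPM in XX granulosa-like cells.

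In XY libraries interstitial and immune cells held *Cyp26b1* UMIs in similar shares of cells. In interstitial cells the level rose from 2.82 and 4.31 CPM in control XY to 6.40 and 10.2 CPM in dKO XY (log2 1.21 ± 0.26, edgeR adjusted p = 0.0328), with 2.43 and 2.41 CPM in control XX. The call was lost without dKO XY replicate 2, control XY replicate 1 or either XX library (edgeR adjusted p = 0.108, 0.167, 0.0616 and 0.0548). The share of interstitial cells with a UMI was 4.16% and 6.46% in control XY and 9.16% and 15.2% in dKO XY, with median depths of 16342 to 22944 UMIs. Immune cells gave 4.196% and 6.14% in control XY and 7.10% and 14.7% in dKO XY at median depths of 20660 to 24004 UMIs. Whether immune cells express the gene themselves was not tested. At 5000 UMIs per cell the dKO XY shares were 2.73% and 4.11% of interstitial and 2.73% and 4.90% of immune cells. The immune shares rest on 183 and 102 cells, so they cannot show whether interstitial cells express the gene. Leydig markers in the same interstitial sums were at 219 to 226 CPM in control XY and 187 to 193 CPM in dKO XY. In XX libraries the highest levels were in endothelial cells, 19.2 and 5.49 CPM, and no UMI was counted in XX pericytes, which allows up to 2.32 and 0.976 CPM (3 counts per library).

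*Cyp26a1*, the other enzyme of this family here and a textbook gene switched on by RA itself, was at or near 0 throughout. Over whole cell types its highest value was 2.23 CPM, in epithelial cells of control XX replicate 2, and it passed the filter on low counts in no comparison. The promoter of *Cyp26a1* is shown because it carries a known type of binding sequence for RA receptors, that of *Stra8* because it is the RA-induced gene of germ cells, and that of *Cyp26b1* because most of the testis values above turn on it. All 3 are RefSeq promoter windows of GRCm38.p6, 250 bases before and 50 bases after the start site, written 5′ to 3′ on the strand of the gene, at chr19:37697558-37697857 (+ strand), chr6:34920698-34920997 (+ strand) and chr6:84593761-84594060 (- strand). Capitals mark a direct repeat spaced by 5 bases in *Cyp26a1*, read on the opposite strand as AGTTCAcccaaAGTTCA, and both copies of AGGTCA in *Stra8*.
Cyp26a1: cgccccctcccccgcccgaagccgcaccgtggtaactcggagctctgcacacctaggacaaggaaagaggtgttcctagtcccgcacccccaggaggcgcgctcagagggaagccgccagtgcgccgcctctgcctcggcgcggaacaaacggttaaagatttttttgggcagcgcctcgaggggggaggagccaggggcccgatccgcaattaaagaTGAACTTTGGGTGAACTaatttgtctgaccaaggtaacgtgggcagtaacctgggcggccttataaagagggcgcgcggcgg
Stra8: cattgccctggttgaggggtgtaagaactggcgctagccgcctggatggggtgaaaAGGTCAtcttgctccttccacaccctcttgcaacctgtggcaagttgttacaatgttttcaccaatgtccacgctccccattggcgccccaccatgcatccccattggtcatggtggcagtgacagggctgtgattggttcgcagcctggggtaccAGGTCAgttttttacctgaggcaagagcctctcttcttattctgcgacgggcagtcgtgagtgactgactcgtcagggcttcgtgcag
Cyp26b1: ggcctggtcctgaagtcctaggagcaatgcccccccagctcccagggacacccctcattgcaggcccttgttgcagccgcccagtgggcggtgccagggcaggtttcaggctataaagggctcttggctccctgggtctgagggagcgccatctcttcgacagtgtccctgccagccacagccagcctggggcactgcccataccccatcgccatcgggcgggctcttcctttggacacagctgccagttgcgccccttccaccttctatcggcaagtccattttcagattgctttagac

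The letters AGGTCA and AGTTCA were searched on both strands, alone and as direct repeats spaced by 1, 2 or 5 bases. The repeat in *Cyp26a1* lies from -32 to -16 relative to the start site, and 13 of 32851 windows of the same length (0.0396%) hold a repeat with this spacing. The *Stra8* copies begin at -194 and -38, and AGGTCA alone occurs in 16.3% of windows. The *Cyp26b1* window holds neither word, which says only that these letters are not in these 300 bases. Windows were found for 7 of the 9 genes, and none of *Aldh1a1*, *Aldh1a2*, *Rbp4* or *Crabp1* held a match. A *Stra6* window, of its 4, held a single AGTTCA.

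*Rbp4* and *Stra6*, which serve retinol transport and uptake, were low in all cell types. *Stra6* fell in dKO XY interstitial cells, from 13.3 and 13.6 CPM in control XY to 6.73 and 6.01 CPM, with 14.2 and 13.0 CPM in control XX. The 8 interstitial markers, all lower in dKO XY than in control XY interstitial cells (3495 to 3550 CPM against 5101 to 5373 CPM), moved with it, and their part in the fall was not tested. Both dKO XY libraries were below all 4 controls, by -1.08 ± 0.11 against control XY (edgeR adjusted p = 0.00349) and by -1.16 ± 0.11 against XX (edgeR adjusted p = 0.000241). All 3 interstitial clusters showed the lower values, with dKO XY at 7.99 and 7.47 CPM against 14.6 and 15.8 CPM in control XY in the *Sostdc1* cluster, at 5.44 and 4.99 CPM against 11.5 and 11.3 CPM in the cycling cluster, and at 7.32 and 7.45 CPM against 13.8 and 10.3 CPM in the stromal cluster, where the XY difference alone did not pass (log2 -0.73, edgeR adjusted p = 0.394).

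In supporting cells *Stra6* stood at 20.6 and 15.0 CPM in control XY, 12.7 and 11.7 CPM in dKO XY and 7.61 and 8.98 CPM in control XX. The groups did not overlap, XX was below control XY (log2 -1.14 ± 0.19, edgeR adjusted p = 0.000603) and dKO XY was above XX (log2 0.63 ± 0.18, edgeR adjusted p = 0.0179), while dKO XY against control XY did not pass (log2 -0.52, edgeR adjusted p = 0.0877). The difference of dKO XY from XX did not pass without dKO XY replicate 1 (0.58, edgeR adjusted p = 0.0662) or control XX replicate 1 (0.51, edgeR adjusted p = 0.108). In Sertoli-like cells the XY groups overlapped, at 20.3 and 13.8 CPM in control XY and 15.51 and 16.9 CPM in dKO XY. *Rbp4* was highest in germ cells, with 17.9 and 21.3 CPM in control XX and 10.9 and 15.2 CPM in dKO XY, a log2 difference of -0.53 that did not pass (edgeR adjusted p = 0.0582). In supporting cells it was below control XY in XX (0.478 and 0.630 CPM against 1.098 and 1.32 CPM, edgeR adjusted p = 0.0253), a call that held in 10 of 16 alternative settings and was lost without control XY replicate 2 (edgeR adjusted p = 0.19) or control XX replicate 1 (edgeR adjusted p = 0.145).

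*Crabp1*, a cytoplasmic RA-binding protein, marked XX interstitial cells. It stood there at 95.9 and 92.1 CPM, against 2.81 and 3.88 CPM in control XY and 10.4 and 5.78 CPM in dKO XY. XX was higher than control XY by 4.87 ± 0.30 on the log2 scale (edgeR adjusted p = 1.77e-05) and dKO XY was lower than XX by -3.59 ± 0.28 (edgeR adjusted p = 7.06e-05). Most of the XY interstitial cells belong to the clusters that hold at most 3 cells in an XX library. In the stromal cluster alone the values were 95.3 and 92.1 CPM in XX, 20.8 and 39.2 CPM in control XY and 14.2 and 10.95 CPM in dKO XY, and XX stayed higher than control XY (log2 1.70 ± 0.24, edgeR adjusted p = 0.00114) and than dKO XY (log2 of dKO XY against XX -2.95, edgeR adjusted p = 4.62e-05).

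The share of interstitial cells with a *Crabp1* UMI was 44.3% and 44.5% in XX, 3.73% and 3.85% in control XY and 9.69% and 7.38% in dKO XY, beside 0% to 3.28% of immune cells. Against control XY, dKO XY interstitial cells were higher by 1.28 ± 0.27 (edgeR adjusted p = 0.0321), whereas the stromal cluster alone was at -1.25 (edgeR adjusted p = 0.212). The call was lost without dKO XY replicate 1 (0.77, edgeR adjusted p = 0.0593), either control XY library (1.08 and 1.53) or either XX library (1.28 and 1.28). Germ markers moved with the dKO XY rise: their sum in interstitial cells was 35.2 to 44.2 CPM in dKO XY against 6.60 to 7.17 CPM in control XY, with 6 of 6 higher. Their part in the result was not tested. In Sertoli-like cells *Crabp1* gave 0 and 1 UMI in control XY and stood at 1.31 and 1.23 CPM in dKO XY (edgeR adjusted p = 0.00395). With these control XY counts it passed the filter on low counts through the dKO XY libraries alone, so no support is drawn from the call. Germ markers stood at 174 to 249 CPM against 37.4 to 53.4 CPM with 6 of 6 higher, and their part was not tested either. That call was lost without either control XY library (edgeR adjusted p = 0.0572 and 0.0637). Across all supporting cells *Crabp1* stood at 0.244 and 0.251 CPM in control XY, from 2 and 4 UMIs, at 2.60 and 1.95 CPM in dKO XY and at 2.55 and 6.30 CPM in XX. Both differences from control XY passed (edgeR adjusted p = 0.00973 for dKO XY and 0.000502 for XX). With these control XY counts *Crabp1* passed the filter on low counts through the dKO XY and XX libraries. No support is drawn from either call. The first did not pass without control XY replicate 2 (edgeR adjusted p = 0.107). Germ markers in these supporting cells were at 219 to 279 CPM in dKO XY and 31.8 to 103 CPM in control XY with 6 of 6 higher, and their part was not tested.

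*Crabp2*, which carries RA to its nuclear receptors, had its highest single value in epithelial cells of control XY. In epithelial cells control XY held 75.4 and 26.3 CPM, dKO XY 7.79 and 6.60 CPM and control XX 11.6 and 36.1 CPM. The dKO XY libraries were below all 4 controls, and the controls varied widely. The difference from control XY was -2.77 ± 0.60 (edgeR adjusted p = 0.0218). Without dKO XY replicate 1, dKO XY replicate 2 or control XY replicate 1 it was -2.95, -2.62 and -1.81 and did not pass (edgeR adjusted p = 0.0985, 0.132 and 0.198), and without control XY replicate 2 it was -3.39. The control XY epithelial sums rest on 30 and 39 cells. The 8 interstitial markers moved with this result, at a summed 968 to 1272 CPM in dKO XY epithelial cells and 4779 to 5079 CPM in control XY with 6 of 8 lower. Their part in it was not tested. In supporting cells *Crabp2* was at 1.41 and 1.43 CPM in dKO XY and 3.02 and 2.68 CPM in XX (log2 -0.95 ± 0.25, edgeR adjusted p = 0.013), and the call was lost without dKO XY replicate 1 (edgeR adjusted p = 0.0553) or control XX replicate 1 (edgeR adjusted p = 0.0887).

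**Figure D4:**
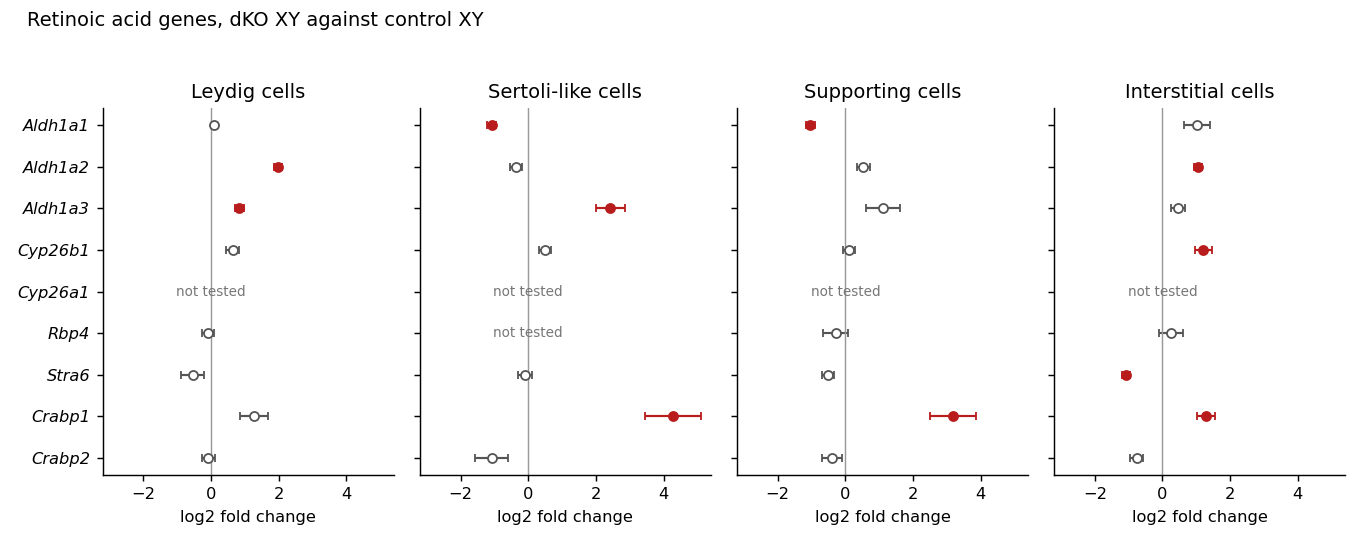
Log2 fold change of dKO XY against control XY for each gene in Leydig, Sertoli-like, supporting and interstitial cells, with bars of 1 SE. Filled red points have an adjusted p under 0.05, and genes that did not pass the filter on low counts are marked as not tested.

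Counted over the 9 genes, dKO XY against control XY called 2 in Leydig cells, both higher (6.3% of the 14757 genes tested were called higher and 3.66% lower). It called 3 in Sertoli-like cells, 2 higher and 1 lower (9.24% and 6.24% of 13583 genes), and 2 in supporting cells, 1 in each direction (9.65% and 6.67% of 15997). In interstitial cells it called 3 higher and 1 lower (3.47% and 2.37% of 16758). The 3 include *Cyp26b1*, seen in a share of cells like that of immune cells. In epithelial cells it called 1 lower (2.92% of 13010 genes higher and 3.35% lower). The higher calls in supporting and in Sertoli-like cells include *Crabp1*, from which no support is drawn. Each of these fits tested 7 or 8 of the 9 genes. None was called in endothelial cells (0 of 3 tested; 0.575% of 11998 genes called) or pericytes (0 of 5; 0.257% of 12082) by edgeR, where 2 genes in each had an unadjusted p under 0.05, and DESeq2 called none either. Control XX against control XY called 6 in supporting cells (49% of all genes called) and 3 in interstitial cells (25.2%), and dKO XY against XX called 4 (41.1%) and 6 (26.4%). The 6 in supporting cells include *Crabp1* too, from which no support is drawn. The comparisons within a cell type share libraries.

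Whether a change differed between cell types was tested on the dKO XY against control XY fold changes with each library as a block. The *Aldh1a1* change in supporting cells was lower than that in Leydig cells by -1.14 ± 0.11 (edgeR adjusted p = 1.15e-05). The *Aldh1a2* change in supporting cells was lower than that in Leydig cells by -1.46 ± 0.21 (edgeR adjusted p = 0.000294). The first difference pairs a fall with a Leydig value near 0, and the second pairs a Leydig rise with a supporting-cell value that did not pass.

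Other genes of retinoid handling were read from a list of 26 genes, none of them among the 9. In supporting cells of dKO XY against control XY, 1 of 19 tested rose and 5 fell (list median log2 -0.33 against 0.01 for all genes, of which 9.65% rose and 6.67% fell). *Adh1*, a retinol dehydrogenase, fell from 19.9 and 20.1 CPM to 5.53 and 5.20 CPM (log2 -1.89 ± 0.21, edgeR adjusted p = 0.000225). *Fabp5*, a fatty acid-binding protein that can also carry RA, fell from 410 and 422 CPM to 134 and 117 CPM (log2 -1.72 ± 0.12, edgeR adjusted p = 2.21e-05). *Dhrs3*, which turns retinaldehyde back to retinol, was the gene that rose, from 10.2 and 9.10 CPM to 17.8 and 19.1 CPM (log2 0.95 ± 0.14, edgeR adjusted p = 0.00113). In XX supporting cells *Dhrs3* was at 92.8 and 95.8 CPM, *Fabp5* at 10.4 and 11.5 CPM and *Adh1* at 0.804 and 1.33 CPM, so that the dKO XY values of these 3 genes lay between those of the control groups. Sertoli-like cells alone kept the lower *Adh1* (log2 -1.91, edgeR adjusted p = 1.57e-05) and *Fabp5* (log2 -1.31, edgeR adjusted p = 3.54e-05), with 4 of 14 list genes lower and 0 higher (9.24% of all genes tested were higher and 6.24% lower). Granulosa markers moved with these results, at a summed 565 to 644 CPM in dKO XY supporting cells, 96.4 to 114 CPM in control XY and 2728 to 2995 CPM in XX, and their part in them was not tested.

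Control XX against control XY called 3 of 19 list genes higher and 7 lower in supporting cells (list median -0.21 against 0.04), beside 49% of all genes tested. It called 5 of 18 higher and 7 lower in interstitial cells, beside 25.2% of all genes. In dKO XY against control XY, the remaining list calls stood beside all-gene shares of 6.3% higher and 3.66% lower in Leydig cells, 2.92% and 3.35% in epithelial cells and 3.47% and 2.37% in interstitial cells. Leydig cells had 1 of 17 higher and 1 lower. *Fabp5* was higher (287 and 297 CPM in dKO XY, 192 and 192 CPM in control XY, edgeR adjusted p = 0.00631) and *Rdh11*, a retinal reductase, lower (28.7 and 31.5 CPM in dKO XY, 44.1 and 42.2 CPM in control XY, edgeR adjusted p = 0.00904). Epithelial cells had 2 of 17 lower and 0 higher, among them *Rdh10*, which makes retinaldehyde from retinol (11.8 and 9.16 CPM in dKO XY, 27.4 and 33.8 CPM in control XY, edgeR adjusted p = 0.0145). Interstitial markers were lower in the same dKO XY sums (968 to 1272 CPM against 4779 to 5079 CPM, 6 of 8 lower and 0 higher), and their part was not tested. The control XY sums rest on 30 and 39 cells. Interstitial cells had 1 of 18 higher and 1 lower, the latter *Lrat*, which stores retinol as esters (0.512 and 0.765 CPM in dKO XY, 1.86 and 1.58 CPM in control XY, edgeR adjusted p = 0.0178).

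Germ cells related these genes to meiosis. Of 24 meiosis genes, read at 5000 UMIs per cell, the median germ cell had a UMI of 15 and 15 genes in control XX, 6 and 7 in dKO XY, and 4 and 3 in the 15 and 7 control XY cells. At least 5 of the genes were seen in 99.6% and 100% of XX, 68.6% and 73.3% of dKO XY, and 46.7% and 42.9% of control XY germ cells, against at most 0.340% of interstitial cells of any library. The cut at 5 is within a continuous range, with 161 of 414 and 98 of 277 dKO XY germ cells at 4 to 6 genes. In summed germ cells, 23 of 24 tested meiosis genes were lower in dKO XY than in XX (26.1% of all genes tested were lower), and the list median was -2.03. *Stra8*, the RA-induced gatekeeper of meiosis, stood at 796 and 336 CPM in XX, 229 and 285 CPM in dKO XY and 18.2 and 5.11 CPM in control XY (dKO XY against XX -1.07 ± 0.23, edgeR adjusted p = 0.000298). *Sycp3*, of the synaptonemal complex, was lower by -3.28, and *Prdm9*, which directs recombination, fell from 208 and 264 CPM in XX to 10.3 and 12.1 CPM in dKO XY (log2 -4.35, edgeR adjusted p = 5.4e-16). *Rec8*, a meiotic cohesin, was the gene not called, at 90.0 and 47.9 CPM in XX and 58.5 and 69.9 CPM in dKO XY. Of 13 tested genes of the fetal male germ line, 8 were higher and 1 lower in dKO XY, beside 51.9% of all genes called in either direction, with *Nanos2* at 0.104 and 0 CPM in XX, 4.66 and 3.69 CPM in dKO XY and 32.3 and 33.2 CPM in control XY.

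Among the 7 of 9 genes tested in germ cells, dKO XY against XX called 2 higher and 2 lower (51.9% of all genes tested were called in this comparison). The 2 higher, *Cyp26b1* and *Stra6*, needed the dKO XY libraries to pass the filter on low counts. No support is drawn from those calls. *Crabp2* was lower, at 16.7 and 15.3 CPM in XX and 7.69 and 7.97 CPM in dKO XY (log2 -0.97 ± 0.24, edgeR adjusted p = 0.00124). *Crabp1* stood at 52.0 and 35.1 CPM in XX and 31.4 and 28.3 CPM in dKO XY (log2 -0.47 ± 0.20, edgeR adjusted p = 0.0466), a call that held in 4 of 13 alternative settings and was lost without dKO XY replicate 1 (-0.57, edgeR adjusted p = 0.0899), dKO XY replicate 2 (-0.37, edgeR adjusted p = 0.23) or control XX replicate 1 (-0.20, edgeR adjusted p = 0.549). *Cyp26b1* was higher, at 6.14 and 7.28 CPM in dKO XY (95 and 73 UMIs) against 1.56 and 0.257 CPM in XX (15 and 2 UMIs; log2 2.85 ± 0.44, edgeR adjusted p = 3.86e-06). The difference was 4.66 without control XX replicate 1, 2.18 without control XX replicate 2 and 2.12 without the highest doublet scores. *Stra6* was at 1.81 and 2.19 CPM against 0.935 and 0.385 CPM (edgeR adjusted p = 0.0116), a call lost without dKO XY replicate 1, dKO XY replicate 2 or control XX replicate 2 (edgeR adjusted p = 0.0877, 0.123 and 0.123).

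The *Cyp26b1* UMIs were found in 13.3% and 15.9% of dKO XY germ cells at median depths of 33330 and 32693 UMIs, against 7.10% and 14.7% of immune cells at 23861 and 24004 UMIs. At 5000 UMIs per cell the shares were 4.59% and 2.53% of germ cells and 2.73% and 4.90% of immune cells, with no common order. The immune shares rest on 183 and 102 cells, too few to tell whether germ cells were above the background. Markers of the cells that hold most *Cyp26b1* moved with this result. The 6 Leydig markers summed to 325 to 517 CPM in dKO XY germ cells and 124 to 125 CPM in XX, with 5 of 6 higher and *Insl3* at 0 in XX. The 11 Sertoli markers summed to 223 to 254 CPM and 77.1 to 81.1 CPM, with 9 of 11 higher. Their part in the result was not tested. *Aldh1a1* (27.5 and 23.6 CPM in XX, 26.5 and 42.6 CPM in dKO XY) and *Aldh1a2* (9.14 and 12.8 CPM, 11.3 and 10.4 CPM) overlapped between the groups. Without the highest doublet scores the means fell to 10.04 CPM in XX and 18.7 CPM in dKO XY for *Aldh1a1*, and to 6.22 and 7.11 CPM for *Aldh1a2*. The immune-cell levels of *Aldh1a1* in dKO XY, given above, were of this size or higher. Of 16 tested genes of the retinoid list, 7 were higher and 3 lower (51.9% of all genes were called), among them the RA receptor gene *Rara*, at 33.7 and 36.8 CPM in dKO XY and 16.3 and 12.2 CPM in XX (log2 1.36 ± 0.21, edgeR adjusted p = 4.53e-06). Its partner *Rxra* was higher too, at 8.41 and 11.4 CPM against 3.74 and 4.37 CPM (edgeR adjusted p = 0.000366). *Dgat1*, which can esterify retinol, was lower at 22.0 and 24.3 CPM against 73.4 and 92.9 CPM (edgeR adjusted p = 8.99e-09).

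**Figure D5:**
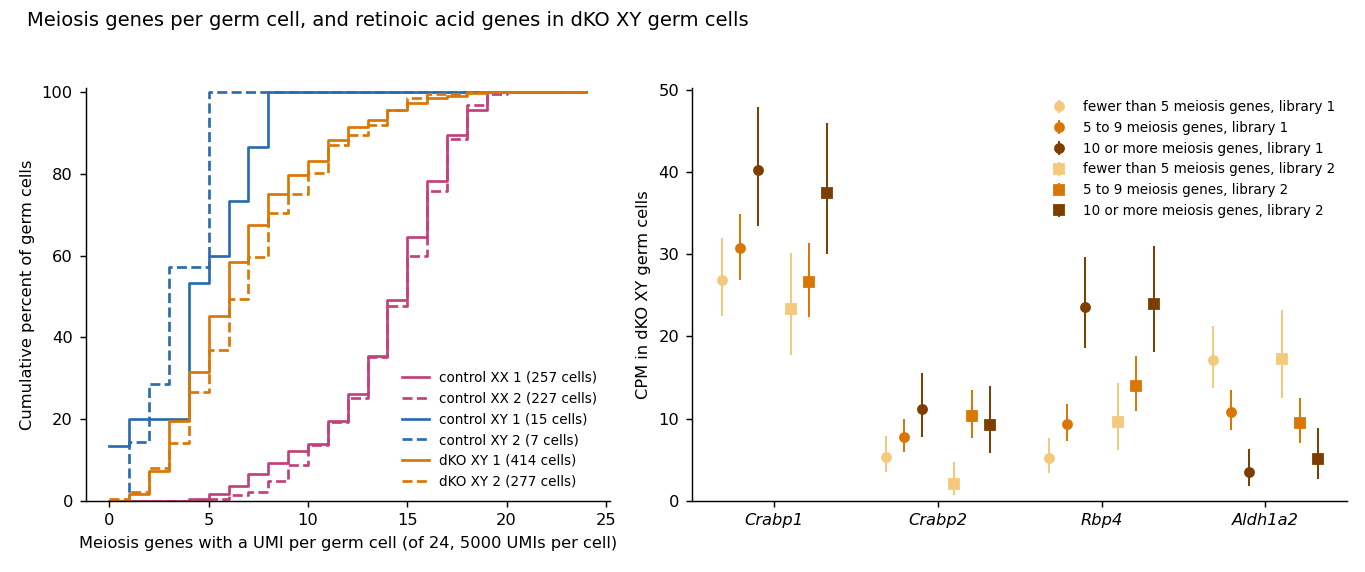
Left, cumulative percent of germ cells of each library by the number of 24 meiosis genes with a UMI at 5000 UMIs per cell. Right, CPM of *Crabp1*, *Crabp2*, *Rbp4* and *Aldh1a2* in dKO XY germ cells with fewer than 5, 5 to 9, and 10 or more of these genes, 1 point per library with 95% exact Poisson intervals. *Rbp4* is higher and *Aldh1a2* lower in the cells with the most meiosis genes in both libraries. The germ marker *Ddx4* rose over the same ranges, and its part in these orders was not tested. The part of background counts in the *Aldh1a2* order was not tested.

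Within dKO XY germ cells, the 9 genes were compared by the number of meiosis genes. The cells were put in ranges of fewer than 5 (130 and 74 cells), 5 to 9 (200 and 134) and 10 or more (84 and 69) meiosis genes, and the differences are described without a test, since cells of a library are not replicates. *Rbp4* stood at 5.17, 9.34 and 23.6 CPM over the 3 ranges in dKO XY replicate 1 and at 9.63, 14.0 and 23.9 CPM in replicate 2. The 95% Poisson intervals of the lowest and highest range did not overlap in either library (3.35 to 7.64 and 18.5 to 29.6 CPM, then 6.17 to 14.3 and 18.1 to 31.0 CPM). Such intervals cover counting error only, not the spread between cells. *Crabp1* went from 26.9 to 40.2 CPM and from 23.3 to 37.4 CPM. The germ marker *Ddx4* rose over the same ranges, at 275, 347 and 404 CPM and at 304, 395 and 466 CPM. The part of the amount of germ-cell RNA in the orders of the 9 genes was not tested. *Aldh1a2* was at 17.2 CPM in the lowest range and 3.51 CPM in the highest in replicate 1, and at 17.3 and 5.04 CPM in replicate 2. The 95% Poisson intervals of these ranges did not overlap in either library (13.7 to 21.3 and 1.75 to 6.28 CPM, then 12.5 to 23.2 and 2.60 to 8.80 CPM). Immune cells of the same libraries, used as a background, held 10.1 and 17.0 CPM of it. The lowest range lay at or above these values and the highest range below them. The part of background counts in this order was not tested. *Stra8* is itself among the 24 genes that set the ranges, so its rise is no separate result. It went from 35.4 to 784 CPM and from 49.4 to 752 CPM. *Aldh1a1* was highest in the lowest range of both libraries, at 39.5, 17.2 and 28.7 CPM and at 70.2, 36.4 and 26.9 CPM. *Cyp26b1* showed no common order, at 6.83, 3.20 and 12.1 CPM and at 11.6, 6.01 and 5.46 CPM. *Aldh1a3* and *Stra6* gave 0 to 14 UMIs in a range. *Cyp26a1*, the RA-induced enzyme, gave 0, 1 and 4 UMIs in replicate 1 and 0, 1 and 7 UMIs in replicate 2, and 4 and 2 UMIs in all XX germ cells.

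*Crabp1* did not rise with the meiosis genes in XX germ cells. There the 30 and 20 cells with 5 to 9 of the genes held 86.9 and 127 CPM, and the 226 and 207 cells with 10 or more held 47.3 and 30.8 CPM. *Crabp2* was likewise higher in the XX cells with fewer meiosis genes (36.2 and 60.5 CPM against 14.2 and 13.2 CPM), and *Rbp4* was not (11.8 and 14.4 CPM against 18.6 and 21.7 CPM).

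Over 41 sums of a library and cell type, the genes most like each of the 9 in log2(CPM + 1) were listed without a test, as the sums share libraries and depth. *Cyp26b1* was most like *Scarb1* (r = 0.88), the lipoprotein receptor that supplies cholesterol to steroid-producing cells, then *Adh1* (0.88) and *Mgarp* (0.86). *Aldh1a1* was most like *Fdxr* (0.95), which passes electrons to the mitochondrial steroid enzymes, *Acsbg1* (0.95) and *Inha* (0.95), the inhibin α subunit. The first gene for the others was *Sdsl* for *Aldh1a2* (0.90), *Bag1* for *Aldh1a3* (0.91), *Smtnl2* for *Stra6* (0.90), *Eefsec* for *Crabp1* (0.84), *Bnc2* for *Crabp2* (0.83) and *Mrpl21* for *Rbp4* (0.84).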

How the data were processed

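The deposited files of each library hold a matrix of UMI counts per gene and cell barcode, which the authors made with Cell Ranger on mm10 (their methods name a correction for swapped barcodes), and the submitters' processing notes also name Seurat 4.0. The counts are not normalized. Microarray data were not analysed here, and *Meiosin* was not analysed here. Cells were kept with over 2500 and under 9000 genes, under 25% mitochondrial and under 20% *Hbb* UMIs, and clustered in Seurat 5.3.0 (R 4.3.3; 3000 variable genes without the listed genes, 20 components, resolution 0.21). Doublets were scored with scanpy 1.11.5 and not removed, which is an alternative.

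Raw counts were summed per library and cell type with at least 10 cells and tested across libraries with edgeR 4.0.16 (quasi-likelihood, TMM, filter on low counts, Benjamini-Hochberg over all genes tested, threshold 0.05), so libraries and not cells are the replicates. The groups compared in supporting, interstitial, epithelial, endothelial and pericyte cells share a fit of all 6 libraries, while Leydig and Sertoli-like cells were fitted on the 4 XY libraries and germ cells on the 4 dKO XY and XX libraries. An exact permutation test of 2 against 2 libraries cannot go below a two-sided p of 0.333. With a library left out, its group holds a single library, so the spread within that group cannot enter the p-value. The labels do not say which libraries came from separate litters, so p-values measure the spread between these libraries. Poisson intervals and limits for a count of 0 (3 counts) cover counting error only. Library totals ranged from 152972655 to 296488697 UMIs over all barcodes. Of the barcodes, 24.4% and 28.3% of dKO XY and 2.22% to 9.35% of control libraries had at least 25% mitochondrial UMIs, and 351 kept cells shared a barcode sequence with a kept cell of another library. Results without those cells and with a limit of 10% are among the alternatives.

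The genes and lists were chosen with earlier results of these data known. Named are the 9 genes in every cell type, in each comparison at most the 4 list genes with the largest fold change among those called, and the genes most alike over cell-type sums; list genes with 0 to 3 UMIs in a group are given by level. An item of the lists that the rule would name is not reported here. *Stra8* and *Rec8* in germ cells fell outside that rule and were named after their values were seen. Each test was tested on simulated data drawn from the real means. In Leydig cells it recovered 40.3% of 1.5-fold, 68.2% of 2-fold and 95.2% of 4-fold changes among 14564 genes. In epithelial cells it recovered 1.49%, 23.1% and 70.8% among 12752. Unchanged genes were called too. Leydig cells gave 21 such calls, beside 27, 45 and 60 right calls at these folds. Epithelial cells gave 7, beside 1, 15 and 46. For dKO XY against control XY, Sertoli-like cells gave 19, beside 11, 43 and 63, and supporting cells 15, beside 13, 36 and 59. Alternatives were DESeq2 1.42.0 with its size factors, keeping genes of low counts, a replicate block, each library left out, a limit of 1500 genes, all variable genes, and others given in the closing section.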

Additional observations from a re-analysis of the deposited data

Results flagged for a closer look

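In 13 cases the change of a gene in dKO XY against control XY differed between 2 cell types of the same libraries, by a test of the difference itself (edgeR quasi-likelihood test with each library as a block, Benjamini-Hochberg over 16127 to 17062 genes, of which 2238 to 3702 were called). *Aldh1a1* in supporting cells was lower relative to Leydig cells by -1.14 ± 0.11 (SE, log2 scale; edgeR adjusted p = 1.15e-05) and relative to interstitial cells by -2.10 ± 0.17 (edgeR adjusted p = 2.95e-05), and its change in Leydig cells was below that in interstitial cells by -0.94 (edgeR adjusted p = 0.00811). *Aldh1a2* in supporting cells was at -1.46 relative to Leydig cells (edgeR adjusted p = 0.000294) and at -0.57 relative to interstitial cells (edgeR adjusted p = 0.00798), and in Leydig cells it was at 0.93 relative to interstitial cells (edgeR adjusted p = 0.00386).

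*Cyp26b1* in supporting cells was at -0.48 relative to Leydig cells (edgeR adjusted p = 0.0191) and at -1.09 relative to interstitial cells (edgeR adjusted p = 0.000362), and in Leydig cells at -0.59 relative to interstitial cells (edgeR adjusted p = 0.00822). Its share of interstitial cells was like that of immune cells. *Crabp1* in supporting cells was at 1.956 relative to Leydig cells (edgeR adjusted p = 0.0475) and at 1.98 relative to interstitial cells (edgeR adjusted p = 0.0188). It had 2 and 4 UMIs in control XY supporting cells, so no support is drawn from either difference. *Crabp2* in Leydig cells was at 0.70 relative to interstitial cells (edgeR adjusted p = 0.02), and *Stra6* in supporting cells at 0.55 relative to interstitial cells (edgeR adjusted p = 0.0398).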

How the results depend on the processing

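Of 192 recomputed counts of called genes, 171 stayed within 1.5 times of the value reported, and of 585 recomputed fold changes 9 turned in direction, 54 lost a call and 10 gained one. Of 275 group mean levels 43 moved by more than 1 SD, and 70 of 72 shares of germ cells with a UMI of a meiosis gene did so without thinning. The mean level of *Aldh1a1* in dKO XY interstitial cells was 220.6 CPM with all variable genes and 189 CPM with more than 1500 genes per cell, and that in control XY 80.2 CPM with all variable genes. Without the highest doublet scores XX germ cells held 10.04 CPM of *Aldh1a1* and 6.22 CPM of *Aldh1a2*, and dKO XY germ cells 18.7 and 7.11 CPM. DESeq2 called 2 of the 9 genes in germ cells in place of 4. With no filter on low counts the calls in dKO XY against control XY became 4 in supporting cells, 4 in Leydig cells, 2 in endothelial cells and 2 in epithelial cells, while the genes called among all those tested went to 3472, 2678, 380 and 1673. The epithelial count was also 2 with more than 1500 genes per cell, with all variable genes, with only the 2 groups compared and, chosen after seeing the data, with less than 10% mitochondrial UMIs. The last setting gave 2 in supporting cells of dKO XY against XX, and the stromal interstitial cluster alone, also chosen after seeing the data, gave 0 in interstitial cells of dKO XY against control XY, where edgeR called 0 of all genes tested.

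With each library left out in turn, the calls in dKO XY against control XY ranged from 1 to 3 in supporting cells (1 without control XY replicate 2), 2 to 4 in interstitial cells (2 without control XY replicate 1), 1 to 4 in Sertoli-like cells (1 without control XY replicate 2), 0 to 2 in epithelial cells (0 without dKO XY replicate 1, dKO XY replicate 2 or control XY replicate 1, 2 without either XX library) and 0 to 1 in endothelial cells (1 without dKO XY replicate 1). They were 3 in Leydig cells whichever XY library was left out, with *Cyp26b1* passing except without dKO XY replicate 2. For dKO XY against XX they ranged from 1 to 4 in supporting cells (1 without dKO XY replicate 1) and from 3 to 4 in germ cells. The genes called among all tested in dKO XY against control XY fell with them to 1198 in supporting cells and 1187 in Sertoli-like cells (both without control XY replicate 2), 253 in interstitial cells and 263 in epithelial cells (both without control XY replicate 1), and were 121 in endothelial cells without dKO XY replicate 1.

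*Cyp26b1* in supporting cells of dKO XY against control XY, which did not pass in any of these settings, turned to -0.045 without the 8% of cells with the highest doublet scores, -0.056 without cells with *Sycp3* or *Tcf21*, -0.055 without dKO XY replicate 2 and -0.12 without control XY replicate 1, the lowest with a library left out, the highest being 0.41. In the stromal cluster alone *Aldh1a2* turned to -0.41 and *Crabp1* to -1.25 in dKO XY against control XY, *Aldh1a2* to 0.48 in XX against control XY and to -0.90 in dKO XY against XX, and *Crabp2* to 0.38 in dKO XY against XX. This cluster holds fewer cells. The cause of these turns was not tested for any of the genes.

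The labels number the libraries of each group 1 and 2, but the numbers do not pair them: deviations of same-numbered supporting-cell libraries correlated at 0.26 between dKO XY and control XY, -0.38 between dKO XY and XX and -0.36 between control XY and XX. With the replicate block the calls were 2, 6 and 4 in supporting cells, 3, 3 and 6 in interstitial cells, 3 in Leydig cells, 3 in germ cells, 4 in Sertoli-like cells, 1 in epithelial cells and 0 in endothelial cells and pericytes, with *Cyp26b1* passing in Leydig cells (log2 0.60, edgeR adjusted p = 0.00123) and Sertoli-like cells (log2 0.50, edgeR adjusted p = 0.00335). Genes called in Leydig cells went from 1469 to 2914 with the block, and those in interstitial cells of dKO XY against control XY from 980 to 633. Depth limits the genes of low level most: a count under 3 UMIs per library could not be told from 0.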

Other observations

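*Stra8* in epithelial cells was highest in 1 library. In dKO XY replicate 2 it gave 258 UMIs (34.7 CPM) and was seen in 36.9% of 295 epithelial cells at a median depth of 16604 UMIs, against 13 UMIs (1.84 CPM) and 6.35% of 189 cells in dKO XY replicate 1, 1.497 and 0.608 CPM in XX and 0 in both control XY libraries. The meiosis genes *Smc1b* (81.3 CPM against 10.6 CPM in dKO XY replicate 1), *Tex15* (100.5 against 34.9), *Sycp1* (36.4 against 5.39), *Sycp3* (17.6 against 3.26) and *Meioc* (15.6 against 0.567) were higher in the same library, and *Rec8* was not (21.7 against 20.1). Germ markers in these epithelial sums were at 226 CPM in dKO XY replicate 2 and 78.7 CPM in replicate 1, 3.75 to 5.14 CPM in control XY and 6.69 to 14.1 CPM in XX, and epithelial markers were at 1285 and 2144 CPM in the dKO XY libraries. The 2 dKO XY libraries differ, so this is a value of 1 library with no replicate. The pattern was picked out with its values in view.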
